A study of Mus musculus with 9 samples.

Results

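The S100 calcium-binding genes described here were the 9 genes S100a1, S100a4, S100a6, S100a10, S100a11, S100a13, S100a14, S100a16 and S100g, taken by symbol from the 50600 genes of the count and TPM tables. RNA-sequencing had been done on 9 mouse libraries in 3 groups of 3. The first 2 groups were organoids from the small intestine of wild-type mice given as C57BL/6, 2 to 5 months old by the methods. These organoids were kept for 24 hr in 50% conditioned medium. The third group was untreated tumoroids from tumours of Apc1638N/+ mice more than 6 months old, whose strain label is MIX. The methods, however, give a mixed background for all the mice. The tumoroids carry the germline Apc allele, and were grown without the R-spondin that the organoids received. The medium had been taken from tumoroids (T-cM) or from wild-type organoids (WT-cM) and cleared by centrifugation, and the replicates of a group came from different mice. By the paper, the sequenced tumoroids were the source of the T-cM, so the tumoroids are linked to the organoids that received it.

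Groups are called here by the library titles, T-cM-titled and WT-cM-titled. The treatment field of the same 6 organoid libraries names the opposite medium, and no value was used to choose between them. If the treatment field is right, every difference between the organoid groups keeps its size and changes its direction, and the names of the organoid groups are exchanged in the comparisons with tumoroids.

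S100 proteins are small calcium sensors with a pair of EF-hand loops. Most of them form dimers that open on binding calcium and then dock onto annexins, cytoskeletal proteins or, outside the cell, receptors such as RAGE. S100g, also called calbindin-D9k, is the exception: it works alone as a calcium buffer that carries calcium through the absorptive enterocyte, and in the intestine it is a classical vitamin D target. S100a10 has lost calcium binding and is held open as the partner of annexin A2.

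Read totals ran from 16541635 to 25170966 counts per library, so that 3 counts, taken as the detection floor, stood for 0.103 to 0.204 CPM (counts scaled by TMM library factors to 1 total). Levels of different genes are compared in TPM, which are divided by gene length, and levels of 1 gene across libraries in CPM. Differences are edgeR log2 fold changes with their standard error (SE), and p-values were adjusted over the 16208 genes with at least 1 TPM in at least 1 library. A gene is said to rise or fall where its adjusted p was below 0.05, and to be called where the log2 fold change also exceeded 1 in size. The 8 epithelial markers summed to 9452 to 11750 CPM in the organoids and to 6527 to 7404 CPM in the tumoroids. The 11 fibroblast and muscle markers summed to at most 1.69 CPM in every organoid library and to between 2.57 and 48.6 CPM in the tumoroids, mostly Acta2, while Col3a1 and Lum had no count anywhere. The 9 immune markers summed to 1.48 to 5.58 CPM in the organoids and 7.70 to 27.1 CPM in the tumoroids, through Cd68 and Csf1r, and Cd3e was at 0. The 5 endothelial markers stayed at or below 3.85 CPM, with Kdr and Emcn at 0. In bulk RNA, fewer cells of a type and less RNA per cell cannot be told apart.

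Every member but S100a4 was read in all 9 libraries. In WT-cM-titled organoids S100g was the most abundant, at 1055 TPM ± 224 (SD, n = 3), and was above S100a6 in each library. S100a6 (605 TPM ± 184), S100a10 (560 TPM ± 44.5) and S100a11 (464 TPM ± 119) came next, and neighbours in that order overlapped. S100a1 (118 TPM ± 13.7) stood apart from these and from S100a16 (72.0 TPM ± 6.58) and S100a14 (67.1 TPM ± 11.2), which overlapped each other. S100a13 was lowest of the expressed genes at 34.4 TPM ± 5.86.

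In T-cM-titled organoids S100a6 had moved to the head of the family at 1279 TPM ± 191, and was above S100g (1058 TPM ± 109) in each of the 3 libraries although the ranges overlapped. In tumoroids S100a11 led at 3633 TPM ± 1827, followed by S100a6 at 2119 TPM ± 268, and S100g was in the sixth place at 155 TPM ± 19.5, behind S100a10 (508 TPM ± 29.7), S100a14 (407 TPM ± 125) and S100a1 (175 TPM ± 28.3). The ranges of S100a11 and S100a6 overlapped, but S100a11 was higher in each tumoroid library. Ranked among all 50600 genes by mean TPM, S100a11 stood at place 343 in WT-cM-titled organoids, 257 in T-cM-titled organoids and 22 in tumoroids, while S100g stood at 139, 135 and 1063.

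**Figure D1:**
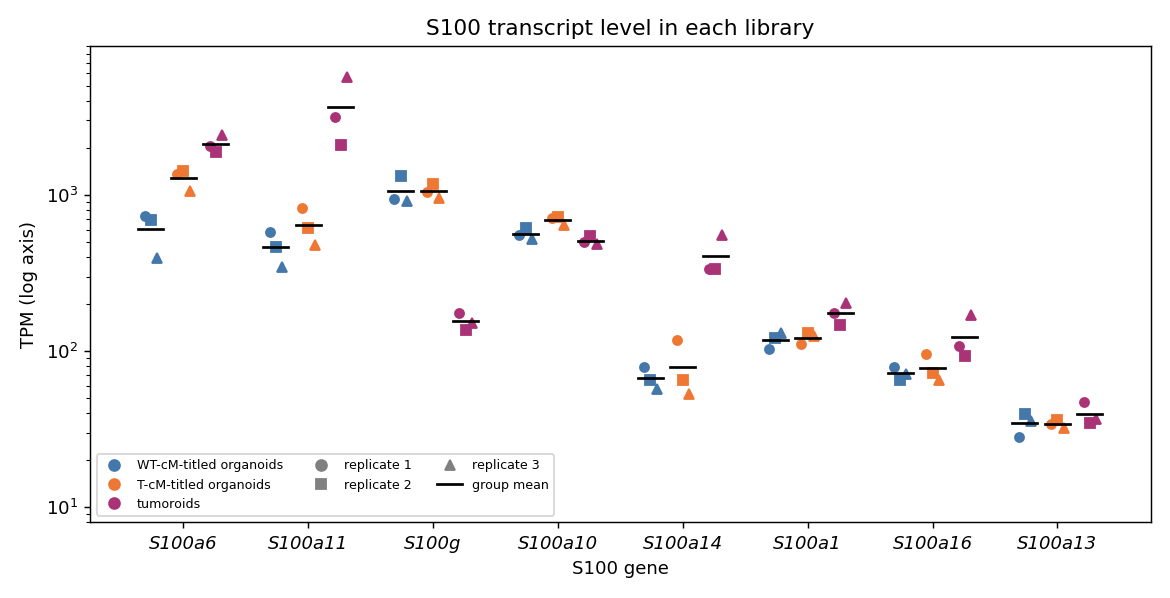
TPM on a log axis for the 8 expressed S100 genes; points are libraries, coloured by group and shaped by replicate number, and black lines are group means. S100a11 in tumoroids ranges from 2093 to 5653 TPM and S100g from 137 to 176 TPM, against 912 to 1313 TPM for S100g in WT-cM-titled organoids.

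Summed over the 9 genes, the family reached 2976 TPM ± 464 in WT-cM-titled organoids, 3979 TPM ± 495 in T-cM-titled organoids and 7162 TPM ± 2259 in tumoroids. S100g supplied 35.5% ± 4.44 of that sum in WT-cM-titled organoids, 26.7% ± 2.01 in T-cM-titled organoids and 2.29% ± 0.621 in tumoroids. The share of S100a11 ran the other way in tumoroids, at 48.8% ± 9.41 against 15.5% ± 2.86 in WT-cM-titled organoids. The ratio of S100a6 to S100g within a library is free of library scaling, and it spanned 0.431 to 0.773 in WT-cM-titled libraries, 1.11 to 1.30 in T-cM-titled libraries and 11.7 to 15.9 in tumoroids, 3 ranges that do not touch.

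**Figure D2:**
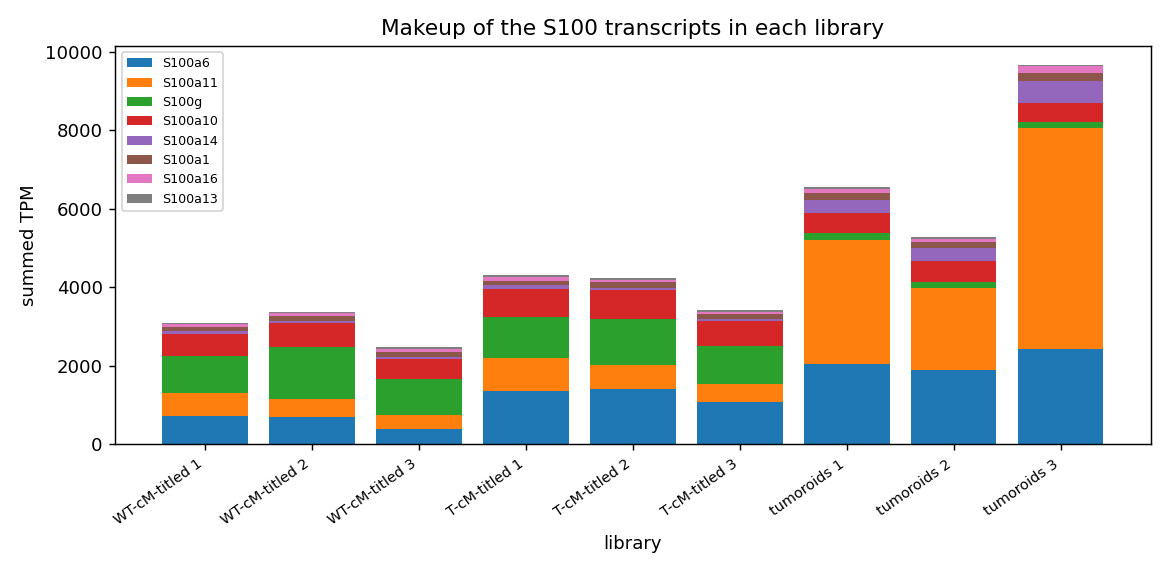
Summed TPM of the S100 genes in each library, stacked by gene from 0. The S100g segment shrinks from 35.5% of the sum in WT-cM-titled organoids to 2.29% in tumoroids, while S100a11 grows to 48.8%.

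The promoters of S100g, S100a6 and S100a11 are shown because these genes led the family in the WT-cM-titled organoids, the T-cM-titled organoids and the tumoroids, respectively. Each is the 250 bases before the RefSeq start on GRCm38.p6, 5′ to 3′ on the gene's strand. The windows are chr3:90612644-90612893 on the plus strand for S100a6, chr3:93520246-93520495 on the plus strand for S100a11 and chrX:162964600-162964849 on the minus strand for S100g. Capitals mark matches, on either strand, to the motifs of TEAD (GGAATG), AP-1 (TGANTCA), TCF (CTTTGA) and Sp1 (GGGCGG).
S100a6: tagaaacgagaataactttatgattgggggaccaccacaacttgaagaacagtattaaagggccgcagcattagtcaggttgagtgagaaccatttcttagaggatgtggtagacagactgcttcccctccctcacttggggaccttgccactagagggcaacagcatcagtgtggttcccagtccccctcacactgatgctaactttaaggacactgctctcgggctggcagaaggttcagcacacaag
S100a11: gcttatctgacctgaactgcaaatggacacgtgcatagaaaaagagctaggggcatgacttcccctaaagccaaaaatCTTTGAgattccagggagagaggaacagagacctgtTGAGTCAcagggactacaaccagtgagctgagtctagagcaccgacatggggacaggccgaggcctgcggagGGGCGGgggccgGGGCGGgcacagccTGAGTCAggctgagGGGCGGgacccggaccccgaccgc
S100g: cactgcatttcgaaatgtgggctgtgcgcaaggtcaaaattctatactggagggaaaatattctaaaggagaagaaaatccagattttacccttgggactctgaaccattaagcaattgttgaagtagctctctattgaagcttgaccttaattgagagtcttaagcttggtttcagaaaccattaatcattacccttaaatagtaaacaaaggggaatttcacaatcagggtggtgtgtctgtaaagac
S100a11 held 2 AP-1 strings, 136 and 38 bases before the start, 1 TCF string at 172 bases and 3 Sp1 strings at 64, 52 and 24 bases, and S100a6 and S100g held none of the 4. AP-1 letters occur in 6.75% of 32851 promoter windows of this length, TCF letters in 13.8%, Sp1 letters in 32.7% and TEAD letters in 12.6%. Of the 8 windows found for 7 members, none held the TEAD letters and 1 of the S100a16 windows held an AP-1 and an Sp1 string. A match describes letters only and is no binding site.

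S100a6, calcyclin, is bound by annexins and by the ubiquitin-ligase adaptor CacyBP, and of the 8 expressed members had the largest log2 fold change between the organoid groups. It lies on chromosome 3 at 90612882 to 90624181 of GRCm38, on the plus strand. WT-cM-titled organoids 1 to 3 had 379, 395 and 235 CPM, T-cM-titled organoids 1 to 3 had 720, 788 and 609 CPM, and tumoroids 1 to 3 had 857, 693 and 922 CPM. Each T-cM-titled library was above each WT-cM-titled library, with same-numbered pairs at ratios of 1.90, 1.99 and 2.59. In the fit with replicate number as a block, the log2 fold change was 1.11 (SE 0.08, adjusted p = 2.62e-10), a 2.16-fold rise.

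Compared with WT-cM-titled organoids, tumoroids had 2.45-fold more S100a6 (log2 fold change 1.29, SE 0.23, adjusted p = 0.00166). Against T-cM-titled organoids the groups overlapped, and the log2 fold change of 0.22 (SE 0.23, adjusted p = 0.455) did not pass the test. On log2 TPM the same comparison gave 0.73 (adjusted p = 0.0325), where the median gene gave 0.51. These comparisons share their organoid libraries. S100a6 was the only member called between the organoid groups, 1 of 9, where 0.673% of all tested genes were called higher and 0.432% lower. That call was lost under other settings with the size of the change kept. On log2 TPM it was 1.12 (adjusted p = 0.276 with a pseudocount of 1 and 0.292 with 0.1). Without the block of replicates it was 1.08 (adjusted p = 0.603), and 0 genes were called in that fit, with 495 higher and 409 lower at an unadjusted p below 0.05. Leaving out replicate 3 gave 0.96 (adjusted p = 8.65e-07), just under the fold threshold.

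S100a11, calgizzarin, which binds annexin A1 in a calcium-dependent way, and S100a10, the annexin A2 partner that brings plasminogen and its activator to the cell surface, both rose slightly in T-cM-titled organoids and then parted in tumoroids. On the plus strand of chromosome 3, S100a11 lies at 93520488 to 93526287 and S100a10 at 93555080 to 93564643. WT-cM-titled organoids 1 to 3 had 113, 99.2 and 77.0 CPM of S100a11, T-cM-titled organoids had 164, 127 and 103 CPM, and tumoroids had 492, 287 and 807 CPM. The organoid groups overlapped, but in each same-numbered pair the T-cM-titled library was higher, by 1.45, 1.28 and 1.34 times. The paired log2 fold change was 0.45 (SE 0.08, adjusted p = 2.98e-04).

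Tumoroids lay above all 6 organoid libraries for S100a11. Their excess was 5.48-fold over WT-cM-titled organoids (log2 fold change 2.45, SE 0.36, adjusted p = 5.31e-04) and 4.03-fold over T-cM-titled organoids (2.01, SE 0.35, adjusted p = 0.00147). Tumoroid 3 was the highest, and without it the log2 fold changes were 2.00 and 1.56, both still called.

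For S100a10 the WT-cM-titled organoids had 254, 308 and 277 CPM, the T-cM-titled organoids 334, 358 and 325 CPM, and the tumoroids 185, 176 and 164 CPM. None of the 3 groups overlapped another. The organoid difference was small, with a log2 fold change of 0.29 (SE 0.07, adjusted p = 0.00945) and pair ratios of 1.32, 1.16 and 1.17. Tumoroids were 1.60-fold below WT-cM-titled organoids (log2 fold change -0.68, SE 0.14, adjusted p = 0.00321) and 1.94-fold below T-cM-titled organoids (-0.95, SE 0.14, adjusted p = 4.67e-04), which is under the fold threshold in both.

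With S100a6, these make 3 of 9 members that rose by adjusted p alone between the organoid groups and 0 that fell, where 5.03% of all tested genes rose and 5.05% fell. At an unadjusted p below 0.05 the members gave 3 and 0 by each of edgeR, limma voom and DESeq2, where the shares of all tested genes were 11% higher and 11.1% lower in edgeR, 10.8% and 10.7% in limma voom, and 6.92% and 6.38% in DESeq2. Under several alternatives the S100a10 and S100a11 rises kept their size and missed the threshold. Without the block their log2 fold changes were 0.29 and 0.45 (adjusted p = 0.873 and 0.893), and with all 9 libraries and no block 0.28 and 0.44 (adjusted p = 1 for each). Without replicate 2 they were 0.32 and 0.48 (adjusted p = 0.321 and 0.169), and on log2 TPM 0.30 and 0.46 (adjusted p = 0.276 for each with a pseudocount of 1 and 0.292 with 0.1). Without replicate 3, S100a10 gave 0.31 (adjusted p = 0.0806). The fall of S100a10 in tumoroids relative to the WT-cM-titled group depends on scaling, since on log2 TPM it was -0.14 (adjusted p = 0.395). The median of all genes sits at 0.52 on that scale and at 0.15 in the edgeR fit, so that relative to the median gene S100a10 stood at -0.66 in the former and at -0.83 in the latter. Relative to the T-cM-titled group the fall passed the test in 18 of 18 alternatives, with -0.44 on log2 TPM (adjusted p = 0.0193) beside -0.95 in the edgeR fit.

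**Figure D3:**
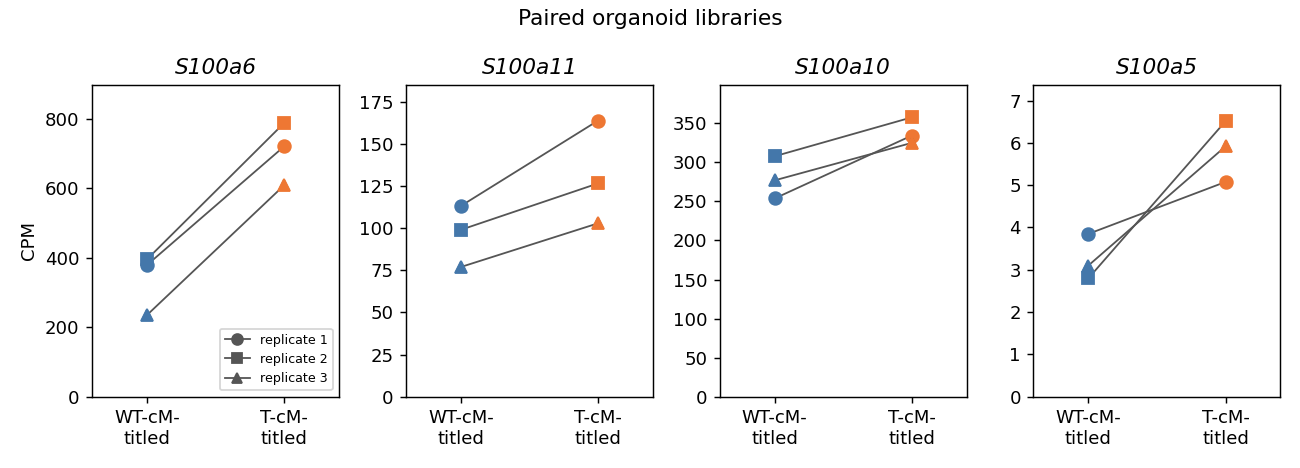
CPM of S100a6, S100a11, S100a10 and S100a5 in the organoid libraries, with lines joining libraries of the same replicate number and axes from 0. All 3 lines climb from the WT-cM-titled to the T-cM-titled library for each gene, by 1.90 to 2.59 times for S100a6.

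S100a14, an epithelial member with a degenerate C-terminal calcium loop, was high in each tumoroid library. It lies on the plus strand of chromosome 3 at 90526856 to 90528837. It had 52.2, 46.8 and 43.2 CPM in the WT-cM-titled organoids, 78.7, 45.9 and 38.3 CPM in the T-cM-titled organoids, and 178, 154 and 266 CPM in the tumoroids. The organoid groups overlapped (log2 fold change 0.15, SE 0.11, adjusted p = 0.461), with T-cM-titled organoid 1 the only library above the WT-cM-titled range. Tumoroids were 4.21-fold above WT-cM-titled organoids (2.07, SE 0.29, adjusted p = 4.32e-04) and 3.67-fold above T-cM-titled organoids (1.88, SE 0.29, adjusted p = 7.26e-04). S100a14 and S100a11 were each highest in tumoroid 3.

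S100g, which carries calcium across the enterocyte, fell in tumoroids. WT-cM-titled organoids had 172, 263 and 192 CPM, T-cM-titled organoids had 195, 229 and 192 CPM, and tumoroids had 25.8, 17.7 and 20.4 CPM. The organoid groups overlapped, and their log2 fold change was 0.01 (SE 0.08, adjusted p = 0.997). Tumoroids were 9.82-fold below WT-cM-titled organoids (log2 fold change -3.30, SE 0.22, adjusted p = 8.86e-06) and 9.65-fold below T-cM-titled organoids (-3.27, SE 0.22, adjusted p = 9.08e-06). S100g lies at 162961992 to 162964599 on the minus strand of chromosome X, inside the span of the plus-strand gene Ctps2, whose log2 fold change in the tumoroid comparison with the WT-cM-titled group was 1.47. The strand setting of the counting is not given in the sources used here, so that reads of this overlapping pair may not have been told apart.

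Enterocyte genes were lower together with S100g. In tumoroids, 11 of 11 listed enterocyte genes fell relative to the WT-cM-titled group, where 18.5% of all tested genes fell, with a median log2 fold change of -7.47 beside 0.15 for all genes tested. The intestinal keratin Krt20 had 649 to 922 CPM in WT-cM-titled organoids and 0.816 to 7.69 CPM in tumoroids. Fabp2, the intestinal fatty acid binding protein, went from 1618 to 2607 CPM in the former to 2.83 to 6.44 CPM in the latter. The brush-border enzymes Sis, Treh and Lct gave log2 fold changes of -8.95, -6.23 and -8.81. Between the organoid groups, where S100g differed by 0.01, 2 of the 11 rose, Alpi and Apob, and 4 fell, Apoc3, Fabp2, Lct and Anpep, beside 5.03% and 5.05% of all tested genes, with a median of -0.09. The part of fewer enterocytes in the S100g value was not tested.

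Among the 10 listed genes of intestinal calcium absorption, 6 were tested. Vdr, the vitamin D receptor, had 471 to 623 CPM in WT-cM-titled organoids, 517 to 822 CPM in T-cM-titled organoids and 84.8 to 196 CPM in tumoroids. It rose between the organoid groups by a log2 fold change of 0.37 (adjusted p = 0.0022) and fell in tumoroids by 2.14 against WT-cM-titled organoids. The basolateral calcium pump Atp2b1 followed the same course, with 0.41 and -0.67. Cldn15, which forms paracellular cation pores, fell by 1.98 in tumoroids, while Cldn2, another pore-forming claudin, fell by 0.51 between the organoid groups and gave -0.27 in tumoroids, which did not pass the test. Trpv6, the apical calcium channel, had no count in any organoid library and 14, 20 and 79 counts in the tumoroids. In all, 2 of the 6 rose and 1 fell between the organoid groups, beside 5.03% and 5.05% of all tested genes, with a median log2 fold change of 0.12. In tumoroids against the WT-cM-titled group 1 rose and 3 fell, beside 23.4% and 18.5%, with a median of -0.47. The gene that rose, Trpv6, passed the level filter only through tumoroids, and the median without it was -0.67.

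S100g is highest in the proximal intestine, so 9 genes of intestinal position were followed with it. Between the organoid groups 3 rose (Onecut2, Slc40a1 and Cubn) and 1 fell, Fabp1, by 0.61, beside 5.03% and 5.05% of all tested genes. Of these 9 genes, 0 rose and 5 fell in tumoroids against the WT-cM-titled group by edgeR, beside 23.4% and 18.5% of all tested genes (1 and 5 at an unadjusted p below 0.05, beside 28.5% and 21.5%), and their median was -1.73 beside 0.15. Fabp1, the liver-type fatty acid binding protein, gave -10.89, the apolipoprotein gene Apoa4 -7.76 and Cubn, the cobalamin receptor, -2.11. The proximal factor Gata4 was among those that fell at -1.73, as was the ileal bile acid binding protein Fabp6, which had 1, 0 and 1 counts in the tumoroids. Slc40a1 and Cybrd1, iron absorption genes of the proximal intestine, gave 1.62 (SE 0.63) and -0.21 (SE 0.96). The ileal bile acid carrier Slc10a2 gave 0.24 (SE 0.62), and none of these passed the test. Their levels differed widely within the WT-cM-titled organoids, with 22.8 to 95.8 CPM for Slc40a1, 12.3 to 223 CPM for Cybrd1 and 4.89 to 26.8 CPM for Slc10a2.

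The remaining members did not pass the test in any of the 3 comparisons. S100a1, best known for its action on the calcium pump of muscle, ranged from 27.3 to 39.4 CPM in WT-cM-titled organoids, 29.7 to 36.6 CPM in T-cM-titled organoids and 27.4 to 39.5 CPM in tumoroids, with log2 fold changes of 0.03, 0.03 and 0.02 (SE 0.10, 0.20 and 0.20). S100a16 ran from 44.2 to 50.7, from 44.3 to 59.7 and from 40.2 to 76.5 CPM, and its log2 fold changes were 0.08, 0.24 and 0.16. S100a13, which helps FGF1 and interleukin 1 alpha out of the cell by a route without signal peptide, ran from 7.64 to 11.8, from 9.52 to 10.5 and from 6.66 to 10.3 CPM, with -0.01, -0.34 and -0.29. All these groups overlapped. On log2 TPM, S100a1 and S100a16 gave 0.56 and 0.72 in tumoroids against the WT-cM-titled group (adjusted p = 0.0152 and 0.0255), beside the median of 0.52 for all genes on that scale. Against T-cM-titled organoids they gave 0.52 and 0.63 on log2 TPM (adjusted p = 0.0213 and 0.0429), beside a median of 0.51.

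S100a4, a marker of fibroblasts and macrophages that binds non-muscle myosin, was at 0 counts in 5 of the 6 organoid libraries and at 1 in T-cM-titled organoid 2. Tumoroids 1 to 3 had 1, 5 and 0 counts. S100a4 passed the level filter through tumoroid 2 alone, at 1.19 TPM, and no fold change is given at counts this near the floor. In the same tumoroids Acta2 had 89, 50 and 1340 counts and Cd68 had 101, 150 and 596 counts, highest in tumoroid 3 in which S100a4 had none. Csf1r had 60, 550 and 131 counts, highest in tumoroid 2, where S100a4 was also highest. Of the 11 fibroblast and muscle markers 6, and of the 9 immune markers 5, had at most 3 counts in every tumoroid library.

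**Figure D4:**
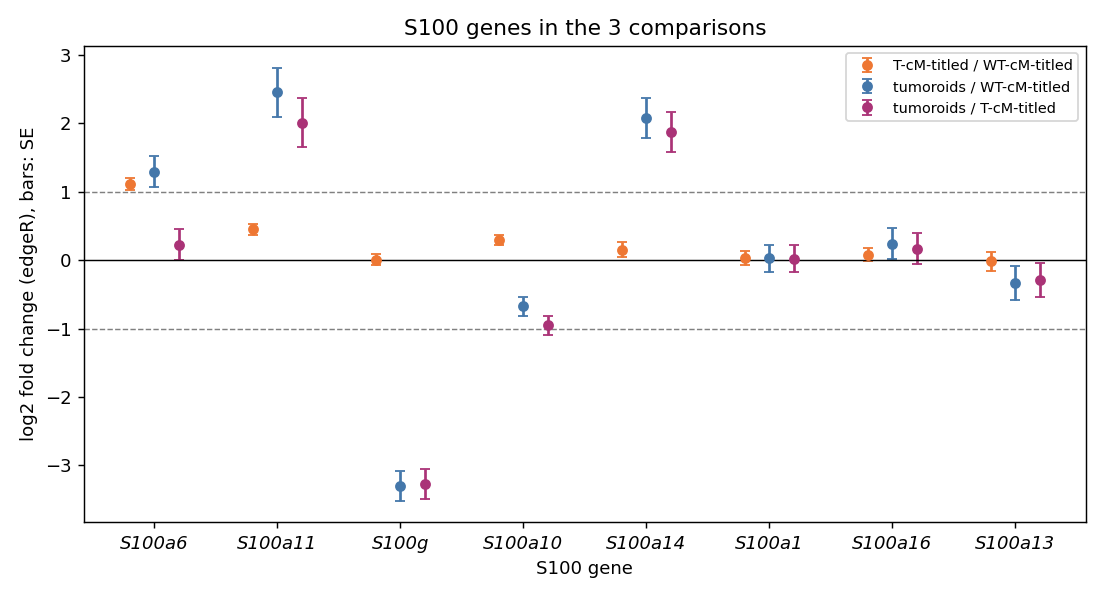
edgeR log2 fold changes of the 8 expressed S100 genes in the 3 comparisons; bars are SE, the solid line is 0 and dashed lines mark the fold threshold of 1. S100a6 stands above 1 in both comparisons with WT-cM-titled organoids and at 0.22 in tumoroids against T-cM-titled organoids, and S100g at -3.30 and -3.27 in tumoroids.

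Across the members, tumoroids against the WT-cM-titled group gave 3 of 9 called higher (S100a6, S100a11 and S100a14), where 18.2% of all tested genes were, and 1 called lower (S100g), where 11.6% were. By adjusted p alone 3 rose and 2 fell, beside 23.4% and 18.5% of all genes. Against T-cM-titled organoids 2 were called higher (S100a11 and S100a14) and 1 lower (S100g), beside 19.4% and 11.8%, and by adjusted p alone 2 rose and 2 fell, beside 25.3% and 19.2%. On log2 TPM with a pseudocount of 1, the split of all called genes moved from 2953 higher and 1881 lower to 3997 and 1096 against the WT-cM-titled group, and from 3139 and 1918 to 4168 and 1146 against the T-cM-titled group. The median log2 fold change of the 8 expressed members was 0.12 between the organoid groups, 0.13 in tumoroids against the WT-cM-titled group and 0.09 against T-cM-titled organoids, and that of all tested genes was 0.00, 0.15 and 0.16. Single members lay far to either side of that median.

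Adjacent members could differ in their change. S100a1, S100a13, S100a14, S100a16, S100a4 and S100a6 lie within 113148 bases of chromosome 3, S100a11 and S100a10 lie 28792 bases apart and 2896306 bases further on. S100a1 and S100a13 are divergent neighbours whose annotated ends are 42 bases apart, and neither passed the test. S100a11 and S100a10 are tandem neighbours, of which S100a11 was 5.48-fold higher and S100a10 1.60-fold lower in tumoroids relative to the WT-cM-titled group.

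S100a5 ends 1101 bases before S100a6 on the same strand, and was the 1 gene that rose between the organoid groups among the tested family genes outside the 9 members. It had 3.85, 2.80 and 3.10 CPM in WT-cM-titled organoids, 5.08, 6.51 and 5.92 CPM in T-cM-titled organoids and 0.408, 0.0744 and 0.172 CPM in tumoroids, from 9, 2 and 5 counts. The log2 fold changes were 0.85 (SE 0.19, adjusted p = 0.00343) between the organoid groups and -3.90 (SE 0.52, adjusted p = 3.01e-04) in tumoroids against the WT-cM-titled group. S100a5 and S100a6 were thus both higher in T-cM-titled organoids, and in tumoroids S100a6 was higher and S100a5 lower than in the WT-cM-titled group.

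The other 16 tested genes within 250 kb of a member gave 0 that rose by edgeR (1 at an unadjusted p below 0.05, the pseudogene Rplp0-ps1) and 1 that fell between the organoid groups, Rbbp7 near S100g at -0.23 (adjusted p = 0.0494), beside 5.03% and 5.05% of all tested genes. Ctps2, which overlaps S100g, was lower at an unadjusted p below 0.05 only, with -0.34 (SE 0.14, adjusted p = 0.116). In tumoroids against the WT-cM-titled group 6 of the 16 rose and 1 fell, beside 23.4% and 18.5% of all tested genes. They included Ctps2 (1.47), Snapin (0.86), Dennd4b (1.54) and Crtc2 (0.49), and Txlng at -0.77. Without the 2 that passed the level filter only through tumoroids, 5 of 14 rose and 1 fell, beside 17.5% and 21.8% of all tested genes that reached 1 TPM in some organoid library.

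**Figure D5:**
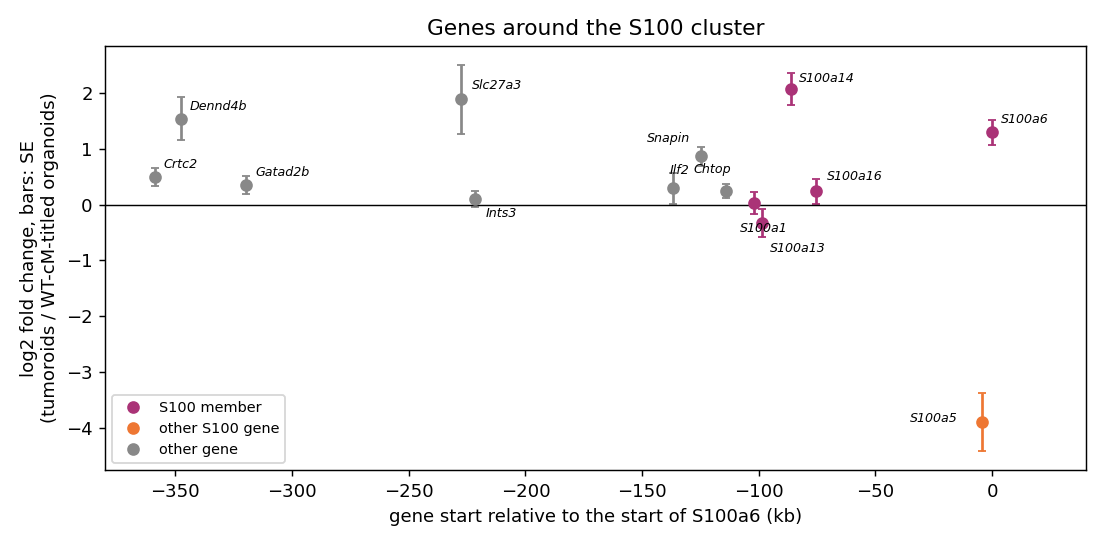
edgeR log2 fold change in tumoroids against the WT-cM-titled group for expressed genes around S100a6, against the distance of each gene's start from that of S100a6 in kb; bars are SE. S100a6 (1.29) and S100a14 (2.07) lie above 0, S100a5 beside S100a6 lies at -3.90, and S100a1 and S100a13 lie at 0.03 and -0.34. S100a7a, S100a8, S100a9 and Pglyrp4, at or near the floor in organoids, are not drawn.

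Of the 14 other listed family genes that had a row, 9 were tested, of which 1 rose (S100a5) and 1 fell (S100b) between the organoid groups, beside 5.03% and 5.05% of all tested genes. In tumoroids against the WT-cM-titled group 3 of the 9 rose and 1 fell, but 6 of the 9, those 3 included, stayed under 1 TPM in every organoid library and passed the level filter only through tumoroids, so that their count is a description, beside 23.4% and 18.5% of all tested genes. Of the remaining 3 genes 1 passed the test, S100a5, which fell. Of the 13759 genes of all tested that had at least 1 TPM in some organoid library, 17.5% rose and 21.8% fell. S100b, known from glia, had 2.53, 2.55 and 4.29 CPM in WT-cM-titled organoids, 2.22, 1.29 and 1.63 CPM in T-cM-titled organoids and 1.59, 1.19 and 0.206 CPM in tumoroids. Its log2 fold change between the organoid groups was -0.84 (adjusted p = 0.0318), and it overlaps Dip2a on the opposite strand, whose reads cannot be told apart without the strand setting. The 3 that rose belong to stratified epithelium and were near absent from organoids. S100a7a had 0 counts in each WT-cM-titled library, 5, 1 and 4 in the T-cM-titled libraries and 31, 430 and 61 in the tumoroids, which is at least 40.6-fold higher than the floor of 3 counts per library in WT-cM-titled organoids, or 10.9-fold without tumoroid 2.

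Rptn and Tchh, fused-type S100 genes that make structural proteins of cornified layers, lie between the filaggrin genes and S100a11. Rptn had at most 1 count in any organoid library and 8.70, 4.72 and 166 CPM in the tumoroids, and Tchh had at most 6 counts in organoids and 7.21, 30.3 and 41.2 CPM in tumoroids. S100a8 and S100a9, the calprotectin genes of neutrophils, were at or near 0, with means of 0.201 and 0.163 CPM in tumoroids and no more than 0.0188 CPM in either organoid group.

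The proteins that S100 dimers bind or signal through were followed in a list of 18 genes, of which 17 were tested. Between the organoid groups edgeR gave 2 that rose and 0 that fell (3 and 0 at an unadjusted p below 0.05), namely Ahnak, the scaffold held by S100a10 and annexin A2, by 0.28 (adjusted p = 0.024), and Atp2a2, the calcium pump, by 0.31 (adjusted p = 0.0111). Of all tested genes 5.03% rose and 5.05% fell, and the median of the list was 0.02, beside 0.00 for all genes. In tumoroids against the WT-cM-titled group 9 of the 17 rose and 1 fell, beside 23.4% and 18.5% of all tested genes, with a median of 1.01 beside 0.15. Fgf1, Il1a, Plau and Tlr4, which are 4 of these 9, passed the level filter only through tumoroids. Without them 5 of 13 rose and 1 fell, with a median of 0.48. The corresponding shares of all genes with at least 1 TPM in some organoid library were 17.5% and 21.8%.

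Anxa1, the partner of S100a11, had 8.63 to 20.3 CPM in WT-cM-titled organoids and 268 to 754 CPM in tumoroids (log2 fold change 5.06, adjusted p = 2.0e-04). Anxa6 had 2.25 to 4.29 CPM in the former and 54.2 to 127 CPM in the latter. Ahnak had 75.7 to 118 CPM and 144 to 785 CPM. Anxa2, the partner of S100a10, was the 1 gene that fell, with 1076 to 1253 CPM in WT-cM-titled organoids and 419 to 974 CPM in tumoroids (log2 fold change -0.93, adjusted p = 0.0349), and is named for being the exception, after its values were seen. As groups, tumoroids thus had more of both S100a11 and Anxa1 and less of both S100a10 and Anxa2. Within the tumoroids Anxa2 was highest in tumoroid 3, at 974 CPM, where S100a10 was lowest, at 164 CPM.

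The list also held receptors and plasminogen activators. Tlr4, a receptor for calprotectin, had at most 6 counts in any organoid library and 25.7 to 46.6 CPM in tumoroids. Plau, the urokinase gene, had at most 2 counts in any organoid library and 2.23 to 50.8 CPM in tumoroids, and Plat, the tissue activator that S100a10 binds, had 4.78 to 8.41 CPM in WT-cM-titled organoids and 19.8 to 201 CPM in tumoroids. Ager, which encodes RAGE, was low throughout, with group means of 1.20, 0.880 and 0.560 CPM, and did not pass the test. Cacybp, the S100a6 partner, had group means of 83.7, 78.8 and 80.3 CPM and did not pass either.

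Genes with the most similar profile were found by Pearson's r of log2 CPM over the 9 libraries, which share 3 groups and their scaling, so that r mostly follows the group means. For S100a6 they were Qpctl (0.95), Zfp830 (0.92) and Gm9157 (0.91), and for S100a11 Abcb1b, Foxa1 and Fermt1 (0.99, 0.99 and 0.99). Anxa1, Rgma and Kif5c were nearest to S100a14 (0.99 in each), and Vipr1, Gmppb and Tbc1d13 to S100g (1.00 in each). S100a10 had 1700123O20Rik (0.99), Naip5 and 1810055G02Rik (0.98 in each). For the members with little change they were Adipor1, Gm24187 and Alkbh7 for S100a1 (0.94 to 0.92), Gm5526, Gm12715 and Ankmy2 for S100a13 (0.95 to 0.92) and Sytl4, Hist1h2ai and Fabp5 for S100a16 (0.94 to 0.91).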

How the data were processed

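The authors aligned paired-end reads of polyA-selected, stranded libraries to mm10 with STAR (2.5.3a) and deposited raw gene counts (Gencode M13) together with TPM, in which counts are divided by gene length and scaled to 1 total per library. The counting tool and its strand setting are not given in the sources used here. Depth was 16541635 to 25170966 counts per library.

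Deposited counts of genes with TPM of at least 1 in at least 1 of 9 libraries were fitted with edgeR 4.0.16 (quasi-likelihood, TMM factors) in R 4.3.3, and p-values were adjusted by Benjamini-Hochberg. The organoid groups were compared in their 6 libraries with the replicate number of the titles as a block, since same-numbered libraries deviated together (r of deviations from the group means 0.55, 0.34 and 0.55), and the tumoroids in all 9 libraries without a block. Deposited TPM served for levels across genes and, as log2(TPM + 1) or log2(TPM + 0.1) in limma 3.58.1, as an alternative. limma voom, DESeq2 1.42.0, other library factors and filters, other sample sets and leaving out each replicate were further alternatives. The fit was also run on counts simulated for 16208 genes, with the same spread for every gene and no replicate effect. Only well-read genes were changed, and recovery meant an adjusted p below 0.05 in the right direction, whatever the fold threshold. The share recovered at a log2 change of 1 was 98% between the organoid groups, 97% for tumoroids against WT-cM-titled and 98% against T-cM-titled organoids. At a log2 change of 2 it was 100% in each. In these comparisons 9, 9 and 8 unchanged genes passed. The simulation checks the fit and does not measure its power in the real libraries.

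The members and gene lists were chosen with earlier results of these data known. All members are named, with at most 5 per list, and of the genes within 250 kb, taken in order of p-value in the organoid comparison or in tumoroids against the WT-cM-titled group, and the 3 genes of most similar profile. Some further genes, such as Slc10a2, Cybrd1, Ager and Cacybp, are named after their values were seen. Gene positions are from GENCODE M21 and promoters from RefSeq, both on GRCm38, with entries for 7 of 9 members.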

Additional observations from a re-analysis of the deposited data

How the results depend on the processing

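The calls in tumoroids of S100a6 (against WT-cM-titled organoids), S100a11, S100a14 and S100g kept their direction and their side of both thresholds under all 18 alternatives run. The calls of the organoid comparison depended on the pairing, and were lost in the limma fits of log2 TPM, which change scale and test together. With RLE and upper-quartile factors 1 member stayed called, beside 178 and 176 of all tested genes. Without the replicate block, on 6 or on all 9 libraries, and on log2 TPM with either pseudocount, 0 members and 0 of all tested genes were called, against 1 and 179. At an unadjusted p below 0.05, the fit of 6 libraries without the block had 495 genes higher and 409 lower, that of 9 libraries 216 and 197, and the TPM fits 1288 and 1402 with a pseudocount of 1 and 1234 and 1319 with 0.1. S100a6 then kept log2 fold changes of 1.08 and 1.07 without the block (adjusted p = 0.603 and 1) and 1.12 on both TPM scales (0.276 and 0.292). Among all genes 118 were called with limma voom and 93 with DESeq2. With no fold threshold 3 members and 1634 genes passed. Leaving out 1 replicate gave 0 to 1 members and 6 to 383 genes, with 383 without replicate 1, 6 without replicate 2 and 90 without replicate 3. S100a10 in tumoroids against T-cM-titled organoids passed the fold threshold with DESeq2 and RLE factors (-1.01 in both) and with only those 2 groups fitted (-1.02). Tumoroids deviated little with same-numbered organoid libraries (r of deviations -0.07 to 0.20), which does not exclude a link through the T-cM they gave. For tumoroids, adding the replicate block left 4 and 3 members called and moved the genes called from 4834 to 4975 and from 5057 to 5206.

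Sign changes were found only in fold changes that did not pass the test. Between the organoid groups, S100g turned to -0.014 with upper-quartile factors, -0.010 without the block and -0.024 with all 9 libraries, and S100a13 to 0.0029 and 0.0033 on TPM. Leaving out a replicate gave ranges of -0.025 to 0.092 for S100a1, -0.092 to 0.30 for S100a14, -0.043 to 0.20 for S100a16, -0.088 to 0.097 for S100g and -0.18 to 0.076 for S100a13. In tumoroids against WT-cM-titled organoids, S100a1 turned to -0.029 with DESeq2 and RLE factors and S100a13 to 0.19 and 0.20 on TPM; against T-cM-titled organoids, S100a1 turned to -0.041 with either and to -0.049 with 2 groups, and S100a13 to 0.19 on both TPM scales. Leaving out 1 library gave ranges for S100a1 of -0.12 to 0.18 and -0.098 to 0.17 in these comparisons, and for S100a16 of -0.048 to 0.44 and -0.13 to 0.36. The cause of these changes was not tested.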
